A study of Rattus norvegicus with 20 samples.

Results

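The genes described here are 10 astrocyte genes, picked by symbol as known markers of astrocyte identity (Aqp4, Slc1a2, Slc1a3, S100b, Aldh1l1 and Gja1) or of astrocyte reactivity (Gfap, Vim, Serpina3n and Lcn2), out of the 17168 genes measured. All 10 were found in the tables of both comparisons. The study sequenced mRNA from the hippocampus of 20 female rats, aged 4 months, with 1 library per rat. The genotype comparison set 5 untreated transgenic-AD rats (TGNT) against 5 untreated wild-type rats (WTNT), to look for early changes in gene expression. The treatment comparison set 6 transgenic-AD rats fed diazoxide (DZ) and dibenzoylmethane (DIB) in their chow (TGTR) against 4 other TGNT rats. DZ opens potassium channels that are closed by ATP, and DIB counters the block on protein synthesis set by phosphorylated eIF2α. TGTR rats received 10 mg/kg of DZ and 200 mg/kg of DIB per day from day 52 of life until 4 months of age, while WTNT and TGNT rats received plain rodent chow. The transgenic rats are of the TgF344-AD line on the Fischer 344 background, in which human APPsw is expressed, with a further transgene, from the prion promoter, so that the transgenes are not limited to 1 cell type. No treated wild-type rats were sequenced in either comparison, and the rats were perfused before dissection. The labels name the left hippocampus and the study's methods the right, so the side is uncertain.

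Astrocytes take up the glutamate and potassium that neurons release, carry water at the endfeet that wrap blood vessels, and are joined to one another by gap junctions. When tissue is injured, inflamed or burdened with amyloid they become reactive: they enlarge their scaffold of intermediate filaments and turn on secreted proteins that resting astrocytes hardly make. Gfap is the mark most often used for reactive astrocytes. In bulk tissue, as here, fewer astrocytes and less RNA per astrocyte cannot be told apart.

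Sequencing depth, as the total of estimated counts in a library, ran from 5848458 to 9926088 in WTNT rats (median 6300653) and from 6610498 to 8117561 in TGNT rats (median 7831894) of the genotype comparison. For the treatment comparison the totals were between 11151973 and 13481985 per TGNT rat (median 11621745.5) and between 9215039 and 14175594 per TGTR rat (median 12544217.5). The floor used here, 3 counts in a library, was worth 0.307 to 0.512 RPM in WTNT rats, 0.374 to 0.452 RPM in TGNT rats of the genotype comparison, 0.225 to 0.276 RPM in TGNT rats of the treatment comparison and 0.212 to 0.303 RPM in TGTR rats. RPM, the level used here, are reads scaled to library size by the authors within each table, so levels were compared only within a table. This floor covers counting error only. Of the 10 astrocyte genes, 8 had a mean of at least 10 counts in both comparisons and were counted in every rat, which fits the labelled tissue as far as astrocytes go, and 2, Serpina3n and Lcn2, were at or under the floor in every rat. App, whose reads from the rat gene and the human transgene are counted together, checked the genotype labels. It measured 1031 to 1160 RPM in WTNT rats and 2071 to 2364 RPM in TGNT rats, with no overlap, a log2 fold change of 1.00 and an adjusted p of 2.45e-07 in edgeR's quasi-likelihood test. Where all rats carry the transgenes, in the treatment comparison, the log2 fold change of App was 0.03.

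Some TGTR libraries stood apart by genes of other tissues. In TGTR replicate 5 the choroid plexus genes summed to 3731 RPM, against 102.7 to 304.7 RPM in the other TGTR rats and 92.97 to 139.4 RPM in TGNT rats, and the genes of meninges and fibroblasts to 1950 RPM, against 181.9 to 226.6 RPM in the other TGTR rats and 170.3 to 339 RPM in TGNT rats. In TGTR replicate 4 the blood genes summed to 1344 RPM, against 199.3 to 273.8 RPM. TGTR replicate 6 gave the next highest choroid plexus sum, 304.7 RPM, with the choroid plexus gene Ttr at 107.6 RPM. Fits without TGTR replicate 5, and with TGTR replicates 4 and 5 left out, are therefore given beside some results of the treatment comparison, a choice made after seeing the data. TGTR replicate 6 stayed in both fits.

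0 of the 10 astrocyte genes were called between TGNT and WTNT rats. A gene was called when it differed at least 1.5-fold and its adjusted p in edgeR's quasi-likelihood test was under 0.05. In the same test 2 of all 17168 genes were called, or 0.0116%. 0 of the 10 had an unadjusted p under 0.05, against 3.23% of all genes, and for 0 of the 10 did the groups fail to overlap, against 0.513% of all genes and 0.652% of those with a mean of at least 10 counts. With other tools, the number of genes called in all was 4 in edgeR's exact test, 4 in its likelihood ratio test and 2 in DESeq2, with 0 astrocyte genes among them for each tool. The median log2 fold change of the 8 genes above the count minimum was -0.0059, with 3 higher and 5 lower in TGNT rats, beside a median of 0.0063 over the 11357 genes above that minimum.

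Between TGTR and TGNT rats, 0 of the 10 astrocyte genes were called, as were 0 of all 17168 genes (0.0%). 1 of the 10, Lcn2, had an unadjusted p under 0.05, against 4.91% of all genes (843 genes). The exact test called 4 genes in all, the likelihood ratio test 5 and DESeq2 3, again with 0 astrocyte genes among them. The median log2 fold change of the 8 genes was -0.03, with 1 higher and 7 lower in TGTR rats, beside 0.00025 over 12029 genes. Without TGTR replicate 5 the median was -0.0036, with 4 higher and 4 lower, and with TGTR replicates 4 and 5 left out it was -0.05, with 1 higher and 7 lower.

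**Figure D1:**
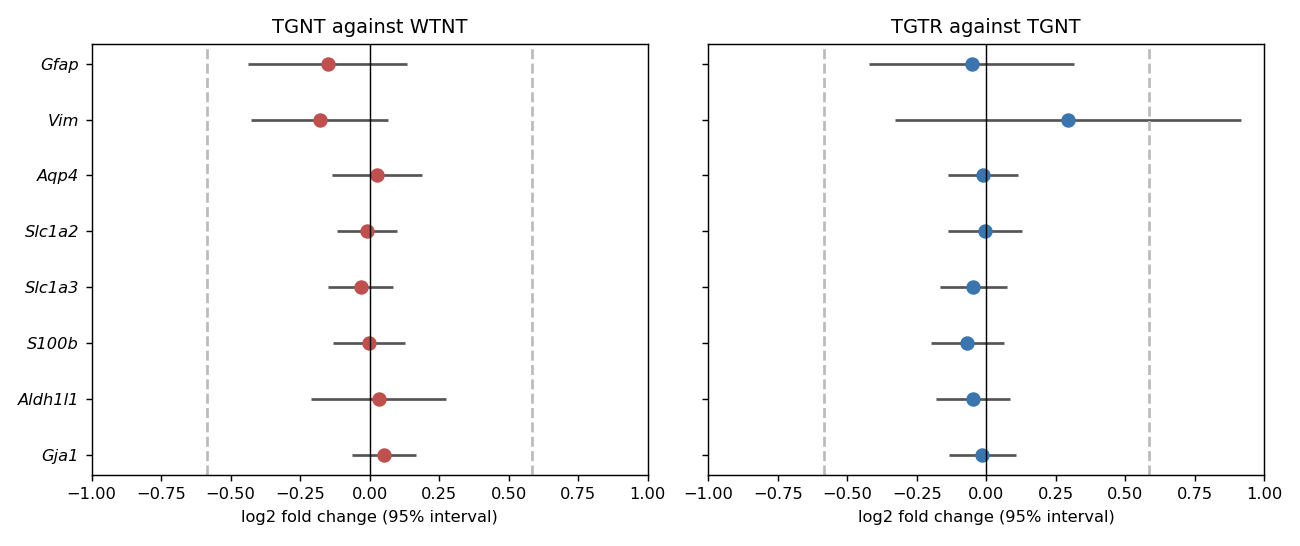
Log2 fold changes of the 8 astrocyte genes above the count minimum, with 95% intervals, for TGNT against WTNT rats (left, 5 and 5 rats) and TGTR against TGNT rats (right, 6 and 4 rats). Points are the values of edgeR's quasi-likelihood test, dashed lines mark a fold change of 1.5, every interval includes 0, and only that of Vim in the treatment comparison reaches past the dashed lines.

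The plot of fold changes with their intervals shows how far a difference of each gene could have gone unseen. For the glutamate transporters, Slc1a2 and Slc1a3, the water channel Aqp4, the gap junction protein Gja1 and the calcium-binding S100b, the 95% intervals lay between -0.15 and 0.19 in the genotype comparison and between -0.20 and 0.13 in the treatment comparison. The intervals of Gfap were wider, from -0.44 to 0.13 and from -0.42 to 0.32. That of Vim in the treatment comparison was the widest of the 16, from -0.33 to 0.92. The adjusted p was 1 for all 8 genes in both comparisons.

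Gfap encodes the main intermediate filament protein of astrocytes. It measured 1007, 868, 747, 882 and 577 RPM in WTNT replicates 1 to 5 and 641, 784, 569, 821 and 843 RPM in TGNT replicates 1 to 5. WTNT replicates 1, 2 and 4 lay above all TGNT rats, while WTNT replicate 5 was nearly as low as the lowest, TGNT replicate 3, so the groups overlapped. The mean was 816 ± 162 RPM in WTNT rats (SD, n = 5) against 732 ± 120 RPM in TGNT rats (SD, n = 5), and the log2 fold change was -0.15 (SE 0.13). The difference between the means was smaller than the SD of either group. The two-sided exact permutation p of the difference was 0.373, where 5 against 5 rats can give no p below 0.00794.

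Vim encodes vimentin, the filament protein that astrocytes share with endothelial cells, fibroblasts and ependyma. It measured 52.2, 49.7, 50.7, 45.2 and 37.4 RPM in WTNT replicates 1 to 5 and 31.1, 41.0, 40.8, 46.0 and 48.1 RPM in TGNT replicates 1 to 5. TGNT replicate 1 was the lowest of the 10 rats and WTNT replicate 5 the next lowest, and the remaining 8 rats overlapped. The mean of 47.1 ± 5.97 RPM in WTNT rats (SD, n = 5) stood against 41.4 ± 6.58 RPM in TGNT rats (SD, n = 5), and the log2 fold change was -0.18 (SE 0.12; two-sided exact permutation p = 0.198). The estimated counts of Vim were not whole numbers in 6 of these 10 rats, so some of its reads were shared with other genes. Single rats weighed on both filament genes. With 1 rat left out at a time the log2 fold change of Gfap ran from -0.25 (without WTNT replicate 5) to -0.07 (without WTNT replicate 1), and that of Vim from -0.25 (without TGNT replicate 5) to -0.09 (without TGNT replicate 1). Without WTNT replicate 5, Gfap had a log2 fold change of -0.25 and Vim of -0.25, both with an unadjusted p under 0.05 and adjusted p of 0.971 and 0.970 in the quasi-likelihood test. No other rat left out gave an astrocyte gene an unadjusted p under 0.05 in this comparison.

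Among the rats of the treatment comparison, Gfap measured 628, 981, 1025 and 1029 RPM in TGNT replicates 1 to 4, and from 653 to 1119 RPM with a median of 872 RPM in the 6 TGTR rats. TGNT replicate 1 was far below the other 3 TGNT rats and lower than all TGTR rats, while TGTR replicates 2 and 5 came close to it, so the groups covered the same range. TGNT rats averaged 916 ± 193 RPM (SD, n = 4) and TGTR rats 881 ± 197 RPM (SD, n = 6), with a log2 fold change of -0.05 (SE 0.17; two-sided exact permutation p = 0.814). The log2 fold change was -0.20 without TGNT replicate 1 and 0.02 without TGTR replicate 5, with adjusted p of 0.885 and 1.

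In the same rats Vim measured 33.6, 42.0, 40.2 and 37.8 RPM in TGNT replicates 1 to 4 and from 31.3 to 100.9 RPM in TGTR rats, with a median of 37.8 RPM. The highest value came from TGTR replicate 5, and the other 5 TGTR rats, at 31.3 to 45.3 RPM, overlapped with the TGNT rats. With that library the log2 fold change was 0.29 (SE 0.29), and without it -0.06 (SE 0.10), so 1 library set the direction. With TGTR replicates 4 and 5 left out it was -0.07. The library with the high Vim is the library with the high sums of choroid plexus and meningeal genes, tissues in which Vim is abundant. The part of those tissues in the Vim level was not tested.

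**Figure D2:**
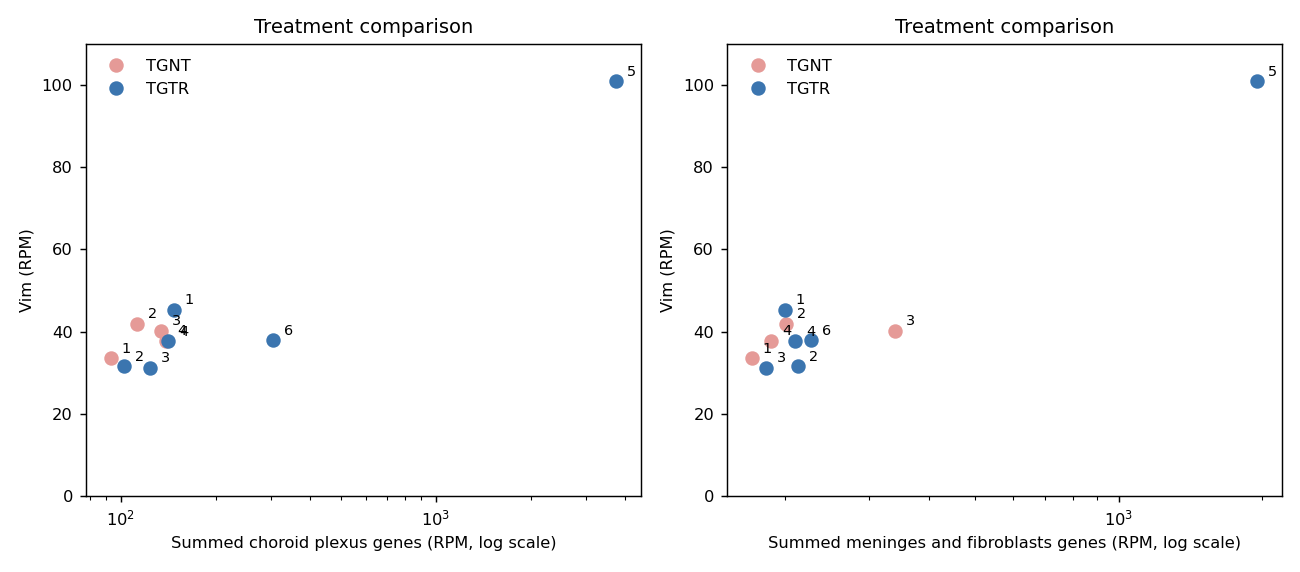
Vim (RPM, vertical axis) against the summed RPM of the choroid plexus genes (left) and of the genes of meninges and fibroblasts (right), both on log scales, in the 4 TGNT and 6 TGTR rats of the treatment comparison. Numbers beside the points are replicates, and TGTR replicate 5, at 100.9 RPM of Vim, lies apart from the other 9 rats on every axis.

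In the plot of Vim against the sums of other tissues, the choroid plexus list held 10 genes, all detected in some rat, of which Ttr had the highest mean, from 0.714 to 2501 RPM in TGTR rats and from 3.34 to 11.7 RPM in TGNT rats. That mean comes from TGTR replicate 5, the only rat with more Ttr than Enpp2, and in the other rats Enpp2 gave more of the sum than the other genes of the list together, at 74.0 to 117 RPM in TGNT rats and 93.7 to 159.8 RPM in TGTR rats. The list of meninges and fibroblasts held 8 genes, led by Ptgds at 108.5 to 1215 RPM in TGTR rats and 84.3 to 227.5 RPM in TGNT rats. Their median log2 fold changes were 3.21 and 0.87 with all rats, and 0.50 and -0.26 without TGTR replicate 5. These medians keep the genes that passed the count minimum with all rats, among them Sostdc1, a choroid plexus gene at 0 to 0.242 RPM outside TGTR replicates 5 and 6, so the 0.50 is not a measure free of TGTR replicate 5. Gfap in that library, at 653 RPM, was the lowest of the TGTR rats, and so were Slc1a2 (1084 RPM), Slc1a3 (820 RPM), S100b (831 RPM) and Gja1 (580 RPM).

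Slc1a2 and Slc1a3 encode the glutamate transporters that clear the synapse. Slc1a2 measured 1395, 1429, 1323, 1354 and 1444 RPM in WTNT replicates 1 to 5 and 1400, 1378, 1391, 1402 and 1303 RPM in TGNT replicates 1 to 5. All 10 rats lay within a narrow band, with the highest 1.11 times the lowest, and the groups overlapped. The log2 fold change was -0.0091 (SE 0.05; two-sided exact permutation p = 0.627). Slc1a2 in the treatment comparison lay between 1147 and 1304 RPM in TGNT rats and between 1084 and 1319 RPM in TGTR rats, and its log2 fold change was -0.0047. Slc1a3 lay between 1206 and 1285 RPM in WTNT rats and between 1092 and 1264 RPM in TGNT rats, and its log2 fold changes were -0.03 between the genotypes and -0.05 between TGTR and TGNT rats. Both transporter genes thus overlapped between groups in both comparisons.

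Aqp4 forms the water channel of the endfeet, and Gja1 encodes connexin 43, the main gap junction protein of astrocytes. Aqp4 measured 1046, 1112, 1075, 1050 and 1035 RPM in WTNT replicates 1 to 5 and 961, 922, 1110, 1185 and 1219 RPM in TGNT replicates 1 to 5. The TGNT rats spread to both sides of the WTNT rats, with a coefficient of variation of 12.3% against 2.91%, and this difference in spread was not tested. The log2 fold change was 0.03 (SE 0.08). For the treatment comparison the spread was small in TGNT rats, between 672 and 694 RPM, and wider in TGTR rats, between 634 and 761 RPM, with a log2 fold change of -0.01. Gja1 lay between 952 and 1104 RPM in WTNT rats and between 1039 and 1094 RPM in TGNT rats; its log2 fold change was 0.05 there and -0.01 between TGTR and TGNT rats. The estimated counts of Aqp4 and Gja1 were fractional in all 10 rats of both comparisons, so reads of these genes were divided with other sequences and their levels are uncertain.

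S100b, a calcium-binding protein also found in oligodendrocytes, and Aldh1l1, a folate enzyme used as a marker of astrocytes as a class, filled the list. S100b lay between 986 and 1133 RPM in WTNT rats and between 971 and 1160 RPM in TGNT rats, and its log2 fold change was -0.0027. Aldh1l1 lay between 16.4 and 20.4 RPM in WTNT rats and between 15.2 and 21.6 RPM in TGNT rats, and its log2 fold change was 0.03. Both genes overlapped widely between the genotypes. Between TGTR and TGNT rats the log2 fold changes were -0.07 for S100b and -0.05 for Aldh1l1, with overlap for each. With 1 rat left out they ran from -0.11 to -0.02 for S100b and from -0.08 to -0.01 for Aldh1l1.

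**Figure D3:**
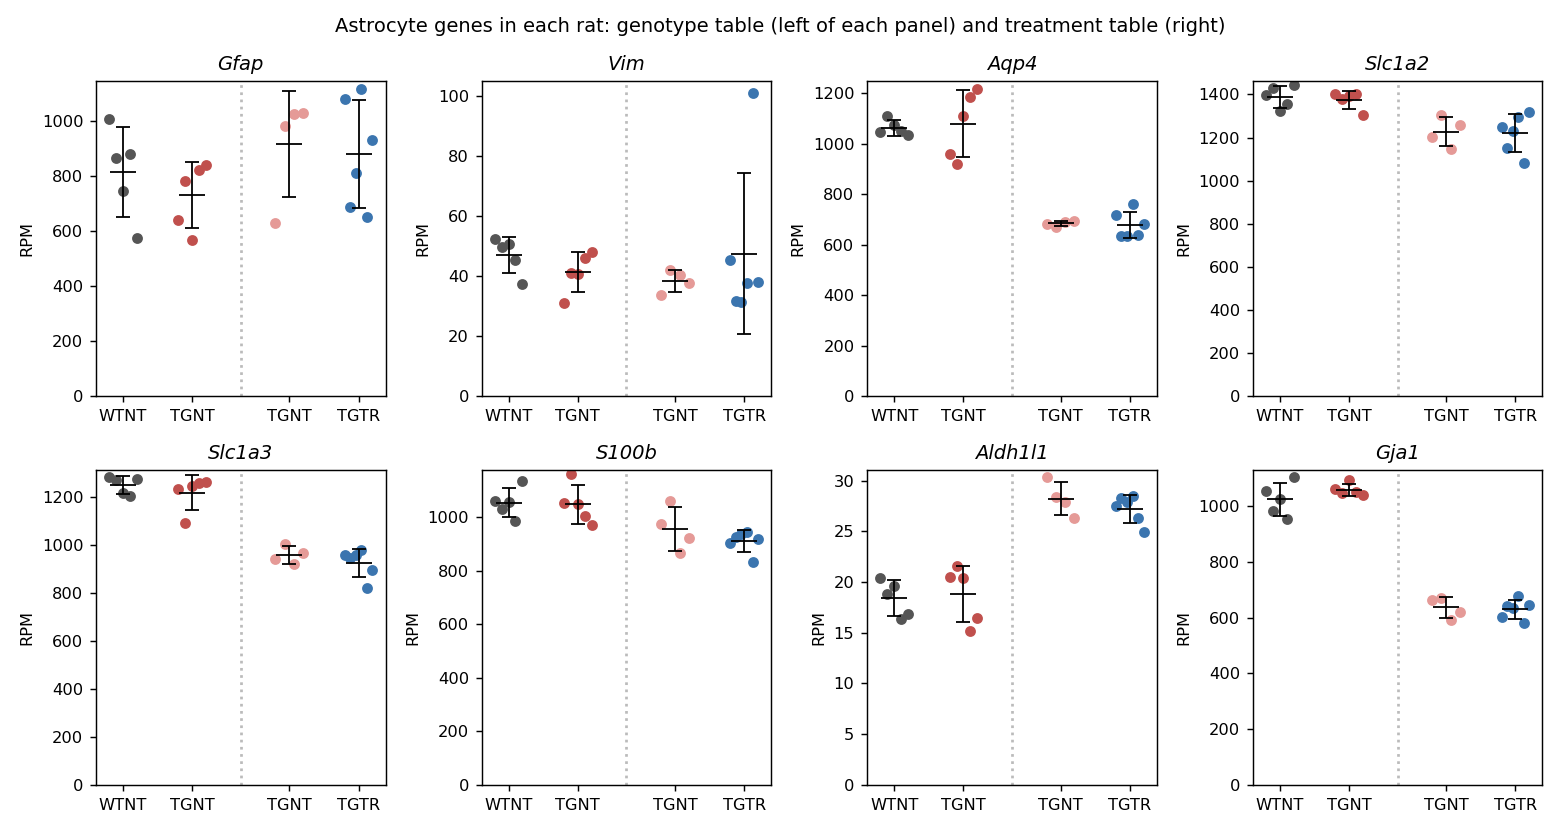
RPM of the 8 astrocyte genes above the count minimum in each rat. Every panel holds the genotype comparison (WTNT and TGNT, 5 rats each) on the left and the treatment comparison (TGNT, 4 rats, and TGTR, 6 rats) on the right of the dotted line, with points for rats, bars for the mean ± SD, and levels not comparable across the line; Gfap spreads widely within every group, and 1 TGTR rat stands apart in Vim.

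In the plot of each gene by rat, Gfap differed from the other abundant astrocyte genes in how widely it varied within a group. Its coefficient of variation was 19.9% in WTNT, 16.4% in TGNT of the genotype comparison, 21.1% in TGNT of the treatment comparison and 22.3% in TGTR rats. Genes with at least 1000 counts had a median coefficient of variation of 6.87%, 6.62%, 5.63% and 5.97% in the same groups. That of Slc1a2 was 3.64%, 3.01%, 5.50% and 7.30%. The highest rat had 1.77 times the Gfap of the lowest in the genotype comparison and 1.78 times in the treatment comparison, a range far larger than the difference between group means.

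Serpina3n, a secreted inhibitor of serine proteases, and Lcn2, the iron-carrier-binding lipocalin 2, are among the genes that rise most in reactive astrocytes of injured or inflamed rodent brain. Serpina3n had 1 count in WTNT replicate 4 and 0 in the other 9 rats of the genotype comparison, and 1 count in TGNT replicate 3 and 2 in TGTR replicate 4 of the treatment comparison. All of these were at or under the floor, so Serpina3n was not detectable at this depth in either genotype or after treatment, and no fold change is given. Lcn2 had 3 counts in all in WTNT rats, 1 each in replicates 3, 4 and 5, and 1 count in TGNT replicate 3. Among the treated rats and their controls Lcn2 had 3, 2, 3 and 1 counts in TGNT replicates 1 to 4, and 1 count in each of TGTR replicates 2, 3 and 6 with 0 in the others, 9 counts against 3. The counts met at 1, while in RPM the groups did not overlap (0.092 to 0.263 against 0 to 0.0811 RPM), as was the case for 1.15% of all genes. Of the 10 astrocyte genes, Lcn2 was the 1 whose groups did not overlap. The two-sided exact permutation p of 0.00476 is the lowest that 4 against 6 rats can give, and the adjusted p over all genes was 0.964 in the quasi-likelihood test. DESeq2 gave it no unadjusted p under 0.05, nor did fits without TGNT replicate 1 or with TGTR replicates 4 and 5 left out. Since every rat was at or under the floor, no fold change is given.

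The starts of 4 of these genes are shown because Gfap and Vim varied most between rats and Serpina3n and Lcn2 were at or under the floor. Promoters of all 10 genes were found in RefSeq (build GRCr8), 14 in all, each from 250 bases before to 50 bases after a start. They were searched on both strands for TTCNNNGAA, the letters bound by STAT factors such as STAT3, and TGANTCA, those bound by AP-1. TTCNNNGAA was found in 8.87% of 33469 promoters and in 1 of the 10 genes, Serpina3n, where it is in capitals; TGANTCA was found in 7.33% and in 1 of the 10, Gja1. The windows of Gfap, Vim and Lcn2 held neither. Sequence outside the windows was not searched, and a match or its absence is a description of these letters only. The windows lie at chr10:88361612-88361911 (minus strand) for Gfap, chr17:81577011-81577310 (plus strand) for Vim, chr6:129088142-129088441 (plus strand) for Serpina3n and chr3:36081731-36082030 (minus strand) for Lcn2.
Gfap: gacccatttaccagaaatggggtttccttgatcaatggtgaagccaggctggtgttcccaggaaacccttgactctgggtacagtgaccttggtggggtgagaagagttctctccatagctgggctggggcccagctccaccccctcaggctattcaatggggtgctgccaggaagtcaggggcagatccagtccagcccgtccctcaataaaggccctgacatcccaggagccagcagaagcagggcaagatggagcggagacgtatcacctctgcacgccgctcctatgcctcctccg
Vim: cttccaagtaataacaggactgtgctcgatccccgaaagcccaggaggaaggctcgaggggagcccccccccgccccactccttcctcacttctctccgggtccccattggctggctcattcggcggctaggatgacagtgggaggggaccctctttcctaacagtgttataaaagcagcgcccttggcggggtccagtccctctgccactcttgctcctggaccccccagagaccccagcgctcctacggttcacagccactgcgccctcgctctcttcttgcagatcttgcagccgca
Serpina3n: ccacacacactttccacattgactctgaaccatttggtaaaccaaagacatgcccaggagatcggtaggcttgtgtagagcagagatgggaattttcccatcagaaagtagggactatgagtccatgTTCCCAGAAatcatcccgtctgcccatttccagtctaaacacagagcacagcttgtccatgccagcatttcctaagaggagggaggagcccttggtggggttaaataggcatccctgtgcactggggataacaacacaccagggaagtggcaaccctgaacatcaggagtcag
Lcn2: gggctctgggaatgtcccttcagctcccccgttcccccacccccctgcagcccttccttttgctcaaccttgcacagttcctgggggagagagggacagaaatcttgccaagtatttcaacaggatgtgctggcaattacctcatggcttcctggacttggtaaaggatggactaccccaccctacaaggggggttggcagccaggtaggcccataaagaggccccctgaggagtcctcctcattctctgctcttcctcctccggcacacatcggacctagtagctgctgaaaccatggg

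The rats lowest in Gfap were also the lowest in myelin genes, and this list was singled out after the values were seen. The 10 oligodendrocyte and myelin genes summed to 7190, 9749, 11140, 8578 and 4894 RPM in WTNT replicates 1 to 5 and to 4616, 7459, 5721, 8229 and 8409 RPM in TGNT replicates 1 to 5. For the treatment comparison the sums were 4413, 6255, 6987 and 6557 RPM in TGNT replicates 1 to 4 and between 5193 and 7926 RPM in TGTR rats. The 3 rats with the lowest Gfap were the 3 with the lowest myelin sum in the genotype comparison (WTNT replicate 5 and TGNT replicates 1 and 3), and so were the 3 lowest in the treatment comparison (TGNT replicate 1 and TGTR replicates 2 and 5).

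**Figure D4:**
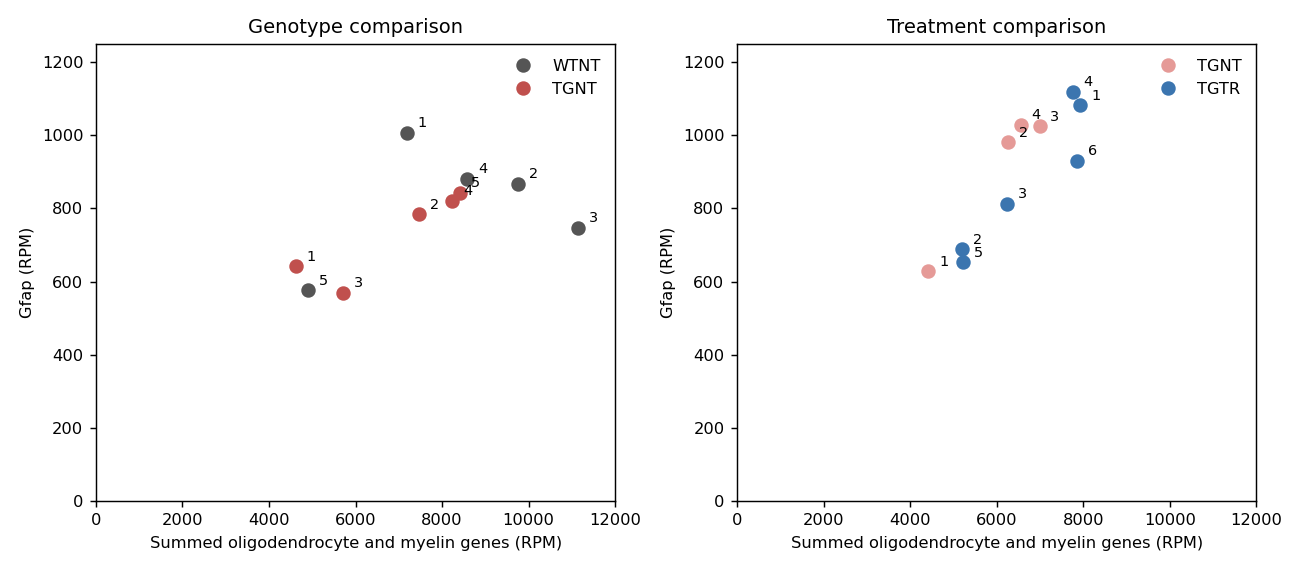
Gfap (RPM, vertical axis) against the summed RPM of 10 oligodendrocyte and myelin genes in each rat of the genotype comparison (left, WTNT and TGNT) and the treatment comparison (right, TGNT and TGTR). Numbers beside the points are replicates, and the 3 rats lowest in Gfap are the 3 lowest in myelin genes in each panel.

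Correlations were computed for the 8 genes with the summed level of each of the 10 lists of other cells and tissues in both comparisons, 160 relations in all, over 10 rats each and on deviations from the group means, with exact permutation tests within groups. 0 of the 160 had an adjusted p under 0.05, while 24 had an unadjusted p under 0.05 by Pearson's r and 21 by Spearman's rho. In the treatment comparison, shown in the plot of Gfap against myelin genes, Pearson's r of Gfap with the myelin sum was 0.968 (exact permutation p = 0.00139, adjusted over the 160 relations 0.199) and Spearman's rho was 0.830 (exact permutation p = 0.00804, adjusted 0.347). Without the 2 rats farthest from the median myelin sum r was 0.936, and without TGTR replicate 5 it was 0.960. Since the low rats drew attention to this list, these p describe the same observation and are no separate test of it. In the genotype comparison r of Gfap with the myelin sum was 0.642 (exact permutation p = 0.0691, adjusted 0.320) and rho 0.503 (exact permutation p = 0.176, adjusted 0.613), and r was 0.175 without WTNT replicate 5 and TGNT replicate 1, so there it rests on those rats. Vim had r of 0.836 with the myelin sum in the genotype comparison (exact permutation p = 0.00722, adjusted 0.231) and rho of 0.782 (exact permutation p = 0.0158, adjusted 0.358), with r of 0.412 without the same rats, and so rests on them too. For Vim in the treatment comparison r was -0.155 (exact permutation p = 0.836, adjusted 0.969) and rho 0.224 (exact permutation p = 0.553, adjusted 0.925), with r of -0.377 without the 2 farthest rats and 0.807 without TGTR replicate 5. Vim in the treatment comparison went with the sums in which TGTR replicate 5 was high. Its r was 0.941 with choroid plexus (exact permutation p = 0.0304, adjusted 0.254; rho 0.721, exact permutation p = 0.0489, adjusted 0.373), and 0.685 without TGTR replicates 5 and 6. Outside TGTR replicates 5 and 6 that sum was mostly Enpp2, and there r of Gfap with it was 0.934. With meninges and fibroblasts r of Vim was 0.932 (exact permutation p = 0.0243, adjusted 0.238; rho 0.697, exact permutation p = 0.0465, adjusted 0.373), and 0.445 without TGNT replicate 3 and TGTR replicate 5, so it rests on those rats. With ependyma r of Vim was 0.822 (exact permutation p = 0.0197, adjusted 0.238; rho 0.697, exact permutation p = 0.0231, adjusted 0.358), and 0.901 without the same rats. Gja1 had r of 0.827 with the microglia sum in the treatment comparison (exact permutation p = 0.00249, adjusted 0.199; rho 0.818, exact permutation p = 0.00932, adjusted 0.347), and 0.631 without those rats. Myelin was not the only list that went with Gfap: with the neuron sum, r of Gfap was -0.704 in the genotype comparison (exact permutation p = 0.0253, adjusted 0.238) and rho -0.721 (exact permutation p = 0.0329, adjusted 0.358), with r of -0.777 without the 2 rats farthest from the median neuron sum. The sign was opposite in the treatment comparison, where r was 0.683 (exact permutation p = 0.0447, adjusted 0.298) and rho 0.188 (exact permutation p = 0.627, adjusted 0.943), with r of 0.612 without the 2 farthest rats. The share of white matter in each dissection was not measured, and its part in the Gfap level was not tested.

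Of the 10 myelin genes, 10 lay lower in TGNT rats than in wild-type rats (median log2 fold change -0.20), 2 of them with an unadjusted p under 0.05, and 0 of 10 called. Without WTNT replicate 3 their median was -0.06, with 9 of 10 lower, and without WTNT replicate 5 it was -0.34. After treatment their median was 0.22, with 10 of 10 higher in TGTR rats, 1 with an unadjusted p under 0.05 and 0 called. Without TGNT replicate 1 it was 0.12, with 8 of 10 higher, and without TGTR replicate 2 it was 0.29. The most abundant of them in the treatment comparison was Mbp. Microglia genes had a median of 0.10 in TGNT against WTNT rats, with 10 of 10 higher (8 of 10 without TGNT replicate 2) and 0 with an unadjusted p under 0.05, and of -0.03 in TGTR against TGNT rats. Their genotype median was 0.06 without WTNT replicate 4. For the neuron list the medians were -0.04 and -0.05, and for oligodendrocyte precursors 0.03 and 0.03. The treatment medians also hung on single rats: that of neurons was -0.01 and that of microglia 0.0083 without TGTR replicate 5, and that of oligodendrocyte precursors was -0.0051 without TGNT replicate 3. Endothelial and mural cell genes had medians of 0.05 and 0.21, with 5 of 9 at an unadjusted p under 0.05 in the treatment comparison, all higher in TGTR rats, and 1 of 9 with TGTR replicates 4 and 5 left out. It was also 1 of 9 without TGNT replicate 3 and without TGNT replicate 4. Of all genes above the count minimum in that comparison, 6.14% had such a p. The medians in the genotype comparison were -0.16 for choroid plexus (3 genes above the count minimum), 0.00083 for ependyma, 0.16 for meninges and fibroblasts, 0.04 for blood and 0.07 for thalamus and habenula. The -0.16 is the value of Enpp2. Enpp2 was highest in WTNT replicate 3 (255.7 RPM) and lowest in TGNT replicate 1 (94.88 RPM), the rats with the highest and lowest myelin sums. Leaving out 1 rat turned the sign of the genotype medians of the lists for neurons, oligodendrocyte precursors, endothelial and mural cells, choroid plexus, ependyma, blood, and thalamus and habenula, and brought that of meninges and fibroblasts to 0.02, with 4 higher and 4 lower, without TGNT replicate 5. For TGTR against TGNT rats the medians were 0.14 for ependyma, 0.96 for blood and 0.13 for thalamus and habenula. That of ependyma was -0.23 without TGTR replicate 5 and -0.14 without TGNT replicate 3. That of blood was -0.0068 with TGTR replicates 4 and 5 left out. That of thalamus and habenula ran from 0.083 to 0.21 with 1 rat left out. Of the 5 thalamus and habenula genes, 4 had an unadjusted p under 0.05, 2 higher and 2 lower in TGTR rats. Only 1 did when TGNT replicate 2, TGNT replicate 3, TGTR replicate 5 or TGTR replicate 6 was left out alone. 0 genes of these lists were at 0 in all rats, and their part in the levels of the astrocyte genes was not tested.

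Related astrocyte genes were described from 7 lists holding 92 genes, of which 88 were in the tables and 4 were not analysed here. Between TGNT and WTNT rats 72 were above the count minimum, 4 had an unadjusted p under 0.05, all higher in TGNT rats, and 0 were called, beside 3.89% of all genes above the minimum at that p. They were Clu, the secreted chaperone clusterin (log2 fold change 0.13), Cntfr, the receptor of ciliary neurotrophic factor (0.19), the transcription factor Gli3 (0.20) and Dmd, dystrophin, which anchors Aqp4 at the endfeet (0.15), with adjusted p of 1 each. Leaving out 1 rat at a time, 0 were under 0.05 when TGNT replicate 3 was dropped and 7 when WTNT replicate 3 was. The list medians were 0.02 for homeostatic astrocyte genes (28 genes), 0.06 for pan-reactive genes (7), -0.22 for genes raised in astrocytes after lipopolysaccharide (7), 0.06 for genes raised after ischaemia (6), -0.03 for STAT3 and the IL-6 family (8), 0.07 for astrocyte transcription factors (9) and 0.07 for the endfoot complex of Aqp4 (7). The median of the transcription factors was 0.0041 without TGNT replicate 5, that of STAT3 and the IL-6 family -0.0053 without WTNT replicate 5, and that of the homeostatic genes ran from 0.0054 to 0.06. Leaving out 1 rat moved the pan-reactive median between -0.06 (without WTNT replicate 5) and 0.11, the lipopolysaccharide median between -0.34 (without TGNT replicate 5) and -0.04 (without WTNT replicate 3), the ischaemia median between -0.03 and 0.10, and the endfoot median between -0.02 and 0.09. Log2 fold changes of the other named genes, none with an unadjusted p under 0.05, were 0.17 for Cldn10, -0.19 for Nes, 0.16 for S1pr3, 0.28 for Srgn, -0.22 for Fkbp5, -0.33 for Ptgs2, 0.20 for Tm4sf1, -0.07 for Stat3, 0.21 for Id3 and -0.06 for Dag1. Single rats moved several of these, with ranges of -0.31 to -0.12 for Nes, 0.11 to 0.20 for Cldn10, 0.11 to 0.19 for S1pr3, 0.20 to 0.37 for Srgn, -0.33 to -0.16 for Fkbp5, -0.53 to -0.21 for Ptgs2, 0.08 to 0.26 for Tm4sf1, -0.12 to -0.04 for Stat3, 0.13 to 0.28 for Id3 and -0.10 to -0.04 for Dag1 when 1 rat was left out. With 1 rat left out, Fkbp5, Srgn, Nes, Ptgs2, Cldn10 and Id3 each had an unadjusted p under 0.05 in some fit. Quasi-likelihood test p fell to 0.00049 for Fkbp5, 0.0054 for Srgn, 0.015 for Nes, 0.017 for Ptgs2, 0.031 for Cldn10 and 0.045 for Id3. Among these genes the smallest adjusted p under any alternative was 0.634, for Fkbp5.

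Between TGTR and TGNT rats 77 related genes were above the minimum, 5 had an unadjusted p under 0.05, 3 higher and 2 lower in TGTR rats, and 0 were called, beside 6.14% of all genes above the minimum at that p. With 1 rat left out at a time the number under 0.05 ran from 2 (without TGNT replicate 3) to 10 (without TGTR replicate 2, and also without TGTR replicate 5). Cd44, the hyaluronan receptor that reactive astrocytes display, measured 12.2 ± 1.48 RPM in TGNT (SD, n = 4) and 15.5 ± 1.19 RPM in TGTR rats (SD, n = 6), and its log2 fold change was 0.34 (two-sided exact permutation p = 0.00952; adjusted p over all genes 0.957 in the quasi-likelihood test). Its groups overlapped, between 13.6 and 14.1 RPM. Id3, a transcription factor, lay between 26.1 and 27.7 RPM in TGNT rats and between 28.6 and 31.7 RPM in TGTR rats. Its groups did not overlap, as was the case for 1.45% of genes above the minimum, with a log2 fold change of 0.14 and an adjusted p of 0.964. Sntb1, of the endfoot complex, was at 0.73, the filament protein Synm at -0.13 and Fkbp5, a glucocorticoid-responsive chaperone, at -0.28, each with an adjusted p of 0.964. Sntb1 was at 0.54 without TGNT replicate 2 and at 1.14 without TGNT replicate 1 (adjusted p 0.142), in which it measured 12.2 RPM, against 4.11 to 6.35 RPM in the other TGNT rats. The pan-reactive list, with 9 genes above the minimum, had a median of -0.10, with 3 higher and 6 lower, of which 1 higher and 1 lower had an unadjusted p under 0.05. Without TGTR replicate 5 its median was -0.22, with 1 higher and 8 lower, and 1 higher and 3 lower had such a p. With TGTR replicates 4 and 5 left out it was -0.29, and 1 higher and 4 lower had such a p, and without TGTR replicate 2 it was -0.0048. The medians of the other lists were -0.03 for homeostatic astrocyte genes (29 genes), 0.0094 for lipopolysaccharide-type genes (8), 0.09 for ischaemia-type genes (7), 0.0022 for STAT3 and the IL-6 family (8), -0.01 for astrocyte transcription factors (9) and 0.01 for the endfoot complex (7). Leaving out 1 rat moved the homeostatic median between -0.06 and 0.0016, the lipopolysaccharide-type median between -0.07 and 0.08, the STAT3 median between -0.02 and 0.03, the transcription factor median between -0.04 and 0.03, the endfoot median between -0.0042 and 0.03 and the ischaemia-type median between -0.13 and 0.15. Log2 fold changes of the remaining named genes were -0.22 for Slc7a10, -0.12 for Slc4a4, 0.53 for Serping1, -0.51 for Ptx3, 0.30 for Emp1, -0.08 for Lifr, 0.06 for Stat3 and -0.10 for Nfib. Serping1 was at 0.30 and Emp1 at 0.15 without TGTR replicate 5, in which Serping1 measured 11.5 RPM and Emp1 9.49 RPM, the highest of the 10 rats. When 1 rat was left out the others ran from -0.28 to -0.17 for Slc7a10, -0.17 to -0.06 for Slc4a4, -0.71 to -0.39 for Ptx3, -0.13 to -0.05 for Lifr, 0.03 to 0.08 for Stat3 and -0.13 to -0.06 for Nfib. The same range was 0.28 to 0.42 for Cd44, -0.39 to -0.22 for Fkbp5, -0.15 to -0.11 for Synm and 0.11 to 0.15 for Id3. The lowest quasi-likelihood test p with 1 rat left out was 0.0086 for Slc4a4, 0.013 for Slc7a10, 0.017 for Ptx3 and 0.024 for Serping1. For Fkbp5 it was 0.00043. The smallest adjusted p under any alternative was 0.176 for Fkbp5 and 0.411 for Cd44.

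These results hold for bulk hippocampus of female rats at 4 months, an age early in this line, with 4 to 6 rats per group. The intervals of Gfap and Vim were wide, and 0 of 10 astrocyte genes called does not show that the groups were equal. Only RNA of the whole tissue was analysed here. No treated wild-type rats were sequenced, so an effect of the agents cannot be set apart from one that depends on the transgenes, and DZ and DIB were given together. Genes of other cells and tissues differed between libraries, and their part in the levels of the astrocyte genes was not tested.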

How the data were processed

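Each rat gave 1 strand-specific poly(A) mRNA library. Used here, from what the authors deposited for each comparison, were the estimated count of each gene symbol from RSEM, without normalization, and RPM, a signal that the authors scaled by TMM within each table of 10 rats. RSEM divides reads that match several genes among them, so estimated counts can be fractional. The submitters' processing notes name bcl2fastq 2.17, Bowtie2 2.1.0, RSEM 1.2.15, edgeR and build rn6, with no order, and the annotation is not given in the sources used here. Promoters come from GRCr8 and were matched by symbol (10 of 10 genes).

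Each table was fitted by itself in R 4.3.3 after rounding its estimated counts to whole numbers. All 17168 genes, without a filter, entered the quasi-likelihood test of edgeR 4.0.16 with TMM factors. P-values were two-sided and adjusted by the Benjamini-Hochberg method over all genes; intervals are 95% intervals of the fit. Means and SD are of RPM. For single genes, the difference of mean RPM was tested by exact permutation, with every way of assigning rats to groups. Medians use genes averaging at least 10 counts, and a count is called whole within 0.005. The fits were tested on simulated data.

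Named genes were the 10 members, App, from each of the 7 related lists every called gene and the 2 genes with the smallest unadjusted p, and from each of the 10 marker lists the most abundant gene, genes at 0 and, where the list's median moved by over 0.3, the gene with the smallest p. Members and lists were chosen with earlier results of these data known. 2 marker genes and 4 related genes were not analysed here. 2 genes that this rule picked are not reported here by name, while the medians and sums of their lists include them.

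Other analyses were DESeq2 1.42.0, the exact test and likelihood ratio test in edgeR, RLE and upper quartile factors, library size only, filterByExpr, robust estimation, limma-trend (limma 3.58.1) on log2 of RPM plus 1 or 0.1, the replicate number as a block, and leaving out 1 rat at a time. The fit with TGTR replicates 4 and 5 left out was added after seeing the data. Correlations were first adjusted over the myelin relations alone, and the family was widened to all 10 lists after seeing the data.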

Additional observations from a re-analysis of the deposited data

Results flagged for a closer look

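In 18 of the 134 groups of rats looked at, 1 rat lay far from the others, by Dixon's gap test at 95%, where chance marks about 1 in 20 groups, or 6.7 here. Their values are given without an explanation.

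In the genotype comparison, Slc1a2 was low in TGNT replicate 5, at 1303 RPM against 1378 to 1402 RPM in the other 4 rats of its group. Slc1a3 was low in TGNT replicate 2, at 1092 RPM against 1234 to 1264 RPM. The microglia sum was low in TGNT replicate 4 (298.1 RPM against 310.5 to 314.7 RPM), and the sum of meninges and fibroblasts was high in WTNT replicate 3 (204.9 RPM against 148.5 to 163.3 RPM). Srgn was low in TGNT replicate 2 (11.3 RPM against 16.7 to 18.9 RPM), and Tm4sf1 was low in WTNT replicate 4 (4.27 RPM against 7.17 to 7.99 RPM).

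In the treatment comparison, Gfap was low in TGNT replicate 1, at 628.3 RPM against 981.2 to 1029 RPM. The library of TGTR replicate 5 lay far from the other 5 in 8 measures. Vim was high in it (100.9 RPM against 31.3 to 45.3 RPM), as were the sums of choroid plexus (3731 RPM against 102.7 to 304.7 RPM), meninges and fibroblasts (1950 RPM against 181.9 to 226.6 RPM) and ependyma (45.5 RPM against 19.9 to 27.6 RPM), and Emp1 (9.49 RPM against 4.85 to 6.06 RPM). S100b was low in it (831 RPM against 901.9 to 942.8 RPM), as were the sums of neuron genes (5001 RPM against 5610 to 5741 RPM) and microglia genes (335.1 RPM against 358.2 to 365.9 RPM). In TGTR replicate 4 the blood sum was high (1344 RPM against 199.3 to 273.8 RPM), and so was Id3 (31.7 RPM against 28.6 to 29.6 RPM). In TGTR replicate 2 the sum of thalamus and habenula genes was high (205.3 RPM against 165.6 to 176.5 RPM).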

How the results depend on the processing

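Under every alternative 0 of the 10 astrocyte genes were called. The number of all genes called depended on the tool: 2 in the genotype comparison with the quasi-likelihood test, DESeq2 and limma-trend but 4 with the exact and likelihood ratio tests, and for TGTR against TGNT rats 0 with limma-trend and the quasi-likelihood test, 3 with DESeq2, 4 with the exact test and 5 with the likelihood ratio test. Of 168 fold changes of the 8 measurable genes in the genotype comparison, 155 kept their sign, and of 176 in the treatment comparison 150 did. Most of the values that turned sign lay near 0, and the cause was not tested. With library size only, Slc1a2 was at 0.0015 and S100b at 0.0072 in the genotype comparison, and Aqp4 at 0.023, Slc1a2 at 0.031 and Gja1 at 0.023 in the treatment comparison. With TGTR replicates 4 and 5 left out, Vim was at -0.072 and Slc1a2 at 0.011. The count of astrocyte genes with an unadjusted p under 0.05 in the treatment comparison, 1 with all rats, was 0 with DESeq2, with filterByExpr, which leaves out Serpina3n and Lcn2, and with TGTR replicates 4 and 5 left out.

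Leaving out 1 rat at a time in the genotype comparison gave log2 fold changes from -0.25 to -0.070 for Gfap, -0.25 to -0.089 for Vim, -0.030 to 0.070 for Aqp4, -0.038 to 0.0061 for Slc1a2, -0.055 to -0.0063 for Slc1a3, 0.020 to 0.082 for Gja1, -0.054 to 0.026 for S100b and -0.030 to 0.089 for Aldh1l1, and 0 to 2 astrocyte genes with an unadjusted p under 0.05, the 2 being Gfap and Vim without WTNT replicate 5. In the treatment comparison it gave -0.20 to 0.021 for Gfap, -0.059 to 0.39 for Vim, -0.051 to 0.0058 for Aqp4, -0.037 to 0.029 for Slc1a2, -0.067 to -0.013 for Slc1a3, -0.11 to -0.017 for S100b, -0.081 to -0.011 for Aldh1l1, -0.048 to 0.010 for Gja1 and -0.015 to 0.062 for App, and 0 to 1 astrocyte genes with an unadjusted p under 0.05, the 0 being without TGNT replicate 1.

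The sources do not say that equal replicate numbers mark pairs of rats, and so few pairs cannot settle it. Same-numbered rats had deviations correlated from -0.21 to 0.34 over genes in the genotype comparison, with 3 of 5 pairs over 0.1. In the treatment comparison the correlations ran from -0.58 to 0.14, with 1 of 4 pairs over 0.1. 2 of 5 and 0 of 4 rats were closest to the rat of their own number. With the replicate block all genes called numbered 2 and 1. TGTR replicates 5 and 6 have no TGNT rat of their number, so in the treatment comparison this fit compared replicates 1 to 4 only. There Gfap was at 0.015, Vim at -0.084, Aqp4 at 0.0032, Slc1a2 at 0.0082, Slc1a3 at 0.0063 and Gja1 at 0.0070. In that fit 0 astrocyte genes had an unadjusted p under 0.05. Serpina3n and Lcn2 were at or under the floor of 3 counts in every rat of both comparisons, and the reason was not tested.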
